A study of Homo sapiens with 6 samples.

Results

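The anaphase-promoting complex or cyclosome (APC/C) was described through 10 genes, 5 of its core subunits (CDC16, CDC23, CDC27, ANAPC5 and ANAPC11) and 5 of its regulators (CDC20, FZR1, FBXO5, UBE2C and UBE2S). They were read by 26 of the 54675 probe sets in the deposited table, namely every probe set whose annotation gave 1 of these symbols and no other. The regulators held 9 of these probe sets and the core subunits 17. The RNA came from 76N cells, normal mammary epithelial cells of human origin kept as a line in DFCI-1 medium, transfected with a control siRNA (3 arrays) or with an siRNA against Ecd (3 arrays). Ecd is the product of ECD, the human counterpart of Drosophila ecdysoneless. Each array held total RNA of 1 biological replicate, per the labels, with the siRNA sequences, dose and time to harvest not given in the sources used here. A comparison of the siRNA groups asks what depleting Ecd does to the transcripts of these cells, and here whether the core subunits and the regulators of the complex moved alike.

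The APC/C is a large ubiquitin ligase that ends mitosis by marking securin and the mitotic cyclins for destruction by the proteasome. It works only with a coactivator that brings in substrates, CDC20 in mitosis and FZR1 (CDH1) from late mitosis through G1. UBE2C starts ubiquitin chains on its substrates and UBE2S lengthens them, while FBXO5 (EMI1) blocks the complex during S and G2 phases. CDC20, UBE2C and FBXO5 are themselves transcribed mainly in dividing cells, and core subunits are present throughout the cycle.

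Values below are MAS5 signals in arbitrary units on a linear scale. Fold changes were computed on log2(signal + 16), which understates the change of dim transcripts. A gene was represented by its brightest probe set and tested if it ranked in the upper 60% of probe sets by mean signal, at 90.2 or more. All 10 members passed this filter among 14612 genes tested with limma, and a change was called at an adjusted p under 0.05 (Benjamini-Hochberg over all genes tested). Signals of different probe sets are not compared as levels, because each probe set binds with its own strength. The 6 arrays had medians of 128.7 to 147.6, and the tested genes together had a median log2 change of 0.0081. ECD itself fell from 1032 ± 38.9 to 577 ± 30.4 (SD, n = 3 each), leaving 55.9% of the control signal (log2 change -0.82, SE 0.095, adjusted p = 0.000177, and p = 0.1 in a two-sided exact permutation test, the smallest that 3 against 3 arrays allow). The basal keratin genes KRT5 and KRT14 were bright in both groups, with mean signals of 16435 and 21386 in control arrays and 16024 and 22350 in Ecd siRNA arrays. Of 8 tested epithelial markers, KRT18 fell from 5702 to 3977 (log2 change -0.52, adjusted p = 0.00197), CDH1 rose by 0.25 on the log2 scale (adjusted p = 0.00914) and 6 did not pass. Of all tested genes 11.0% fell and 10.1% rose, the shares to set beside these markers and those of other cell types. Of 16 markers of fibroblasts, immune cells, endothelial cells and adipocytes, 4 passed the filter. Of these, the fibroblast collagen gene COL1A1 rose from 600 to 872 (log2 change 0.52), while COL1A2 (-0.17), DCN (0.11) and the endothelial PECAM1 (-0.20) did not pass. The summed signal of the 7 fibroblast markers was 1349 to 1538 in control arrays and 1630 to 1825 in Ecd siRNA arrays. None of the 7 was at 0, and COL3A1, LUM, PDGFRA and PDGFRB were under the filter. Whether any such cells were in the cultures, and their part in the values below, was not tested.

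CDC20 fell the most of the 10. Its probe set 202870_s_at read 1633.4, 1894.3 and 1663.0 with control siRNA and 233.0, 239.9 and 218.0 with Ecd siRNA. Every Ecd siRNA array was far below every control array, and 13.3% of the mean control signal was left. On the log2 scale CDC20 changed by -2.82 (SE 0.11), which is 7.08-fold lower (adjusted p = 1.13e-07), and it ranked 18 from the lowest among the 14612 tested genes. CDC20 had this 1 single-symbol probe set, and the RefSeq gene table lists 1 pseudogene of CDC20 whose transcripts were not told apart from its own. CDC20 is also the protein that the spindle checkpoint holds in check until all chromosomes are attached. In bulk RNA, as here and in the falls that follow, fewer cells that carry a transcript and less of it per cell cannot be told apart.

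FBXO5, the inhibitor of the complex before mitosis, fell almost as far. Its brighter probe set 218875_s_at gave 878.6, 605.5 and 983.0 in control arrays and 130.6, 130.2 and 147.2 after Ecd siRNA. The control arrays were spread widely, with replicate 2 the lowest, while the Ecd siRNA arrays lay close together and wholly below them. The log2 change was -2.44 (SE 0.18, adjusted p = 8.29e-06), with 16.5% of the mean signal left. The other probe set, 234863_x_at, read 598.6, 578.6 and 580.5 against 65.3, 149.0 and 96.5 and gave -2.39 (SE 0.24). Both FBXO5 probe sets thus fell, by nearly the same amount.

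The paired ubiquitin-conjugating enzymes (E2) fell unequally in the probe sets read. UBE2C, the chain-initiating enzyme, had signals of 2609.8, 2781.1 and 2436.7 in control arrays and 577.2, 455.4 and 509.1 in Ecd siRNA arrays, a log2 change of -2.31 (SE 0.11, adjusted p = 3.96e-07) with 19.7% left. UBE2S, the chain-elongating enzyme, read 4717.6, 4825.9 and 4181.2 against 1391.0, 1490.7 and 1613.3, a log2 change of -1.60 (SE 0.086, adjusted p = 9.11e-07) with 32.8% left. For neither gene did the groups overlap. Within each array the log2 signal of UBE2C minus that of UBE2S was -0.85, -0.79 and -0.78 in control arrays and -1.25, -1.68 and -1.63 in Ecd siRNA arrays. In these probe sets UBE2C thus fell further than UBE2S, with a difference of log2 changes of -0.71 (SE 0.14, 95% interval -1.10 to -0.33). The exact permutation p was 0.1, the smallest that 3 against 3 arrays allow. Each of these genes had 1 single-symbol probe set, and the RefSeq gene table lists 5 pseudogenes of UBE2C and 2 of UBE2S whose transcripts were not told apart from theirs.

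Other pairs, taken from among the genes that fell in these arrays, were compared in the same way. Because of that choice their intervals and p-values are given as description only. The log2 change of CDC20 minus that of UBE2C was -0.51 (SE 0.12, 95% interval -0.84 to -0.18, exact permutation p = 0.1). The difference of changes between CDC20 and FBXO5 was -0.39 with an interval of -1.18 to 0.41 (exact permutation p = 0.3), and that between FBXO5 and UBE2C was -0.12 with an interval of -0.91 to 0.66 (exact permutation p = 0.8). These intervals are wide, and the order of FBXO5 among the other falls is not settled by them. In all, 10 such within-array differences were computed, including pairs of probe sets and pairs chosen after their values were seen. Those with an exact permutation p of 0.1 had an adjusted p of 0.143 over the 10. That adjusted p thus depends in part on the chosen pairs.

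**Figure D1:**
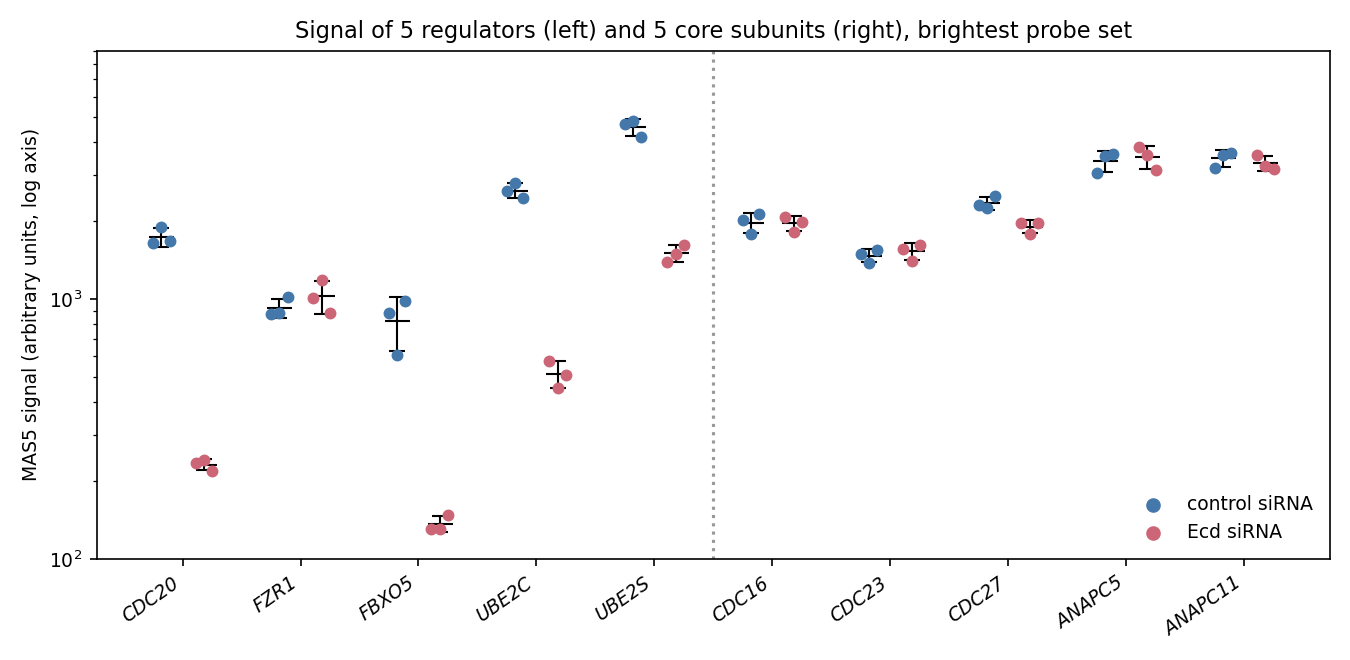
MAS5 signal on a log axis for the brightest probe set of each member, with points for the 3 control siRNA (blue) and 3 Ecd siRNA (red) arrays and bars for the mean and SD. CDC20, FBXO5, UBE2C and UBE2S drop with no overlap, CDC27 drops slightly from 2333 to 1895, and FZR1 and the other 4 core subunits overlap between groups.

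FZR1, the G1 coactivator, did not fall. Its brightest probe set, 209416_s_at, read 872.0, 881.1 and 1013.8 in control arrays and 1009.3, 1182.1 and 880.6 in Ecd siRNA arrays. The groups overlapped, and the log2 change of 0.14 (SE 0.12, 95% interval -0.13 to 0.41, adjusted p = 0.477) did not pass the threshold. Within each array the log2 signal of CDC20 minus that of FZR1 was 0.89, 1.09 and 0.71 in control arrays and -2.04, -2.23 and -1.94 in Ecd siRNA arrays. The transcripts of the coactivators therefore changed unequally, by -2.97 on the log2 scale (SE 0.14, exact permutation p = 0.1).

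The 4 probe sets of FZR1 did not give 1 answer. 211865_s_at also overlapped between groups, with means of 592 and 647 and a log2 change of 0.13 (SE 0.11). 209414_at read 145.9, 146.9 and 186.0 in control arrays and 264.9, 314.2 and 348.2 after Ecd siRNA, and it rose by 0.89 (SE 0.18, adjusted p = 0.0077 in the limma fit across all 27027 probe sets above the filter). All its Ecd siRNA arrays were above all its control arrays. 209415_at was likewise higher in every Ecd siRNA array, with 290.6, 241.8 and 274.9 against 313.6, 398.1 and 441.2, but its log2 change of 0.48 did not pass (adjusted p = 0.0715). It passed without Ecd siRNA replicate 1 (0.61, adjusted p = 0.0304). As the mean of its 4 probe sets FZR1 was at 0.41 with an adjusted p of 0.0273, so the call for this gene turns on which probe sets are read. Within the arrays the log2 change of 209414_at minus that of 209416_s_at was 0.75, a pair chosen after the values were seen, so its test is not given. The places of these probe sets on the FZR1 transcripts were not used here.

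**Figure D2:**
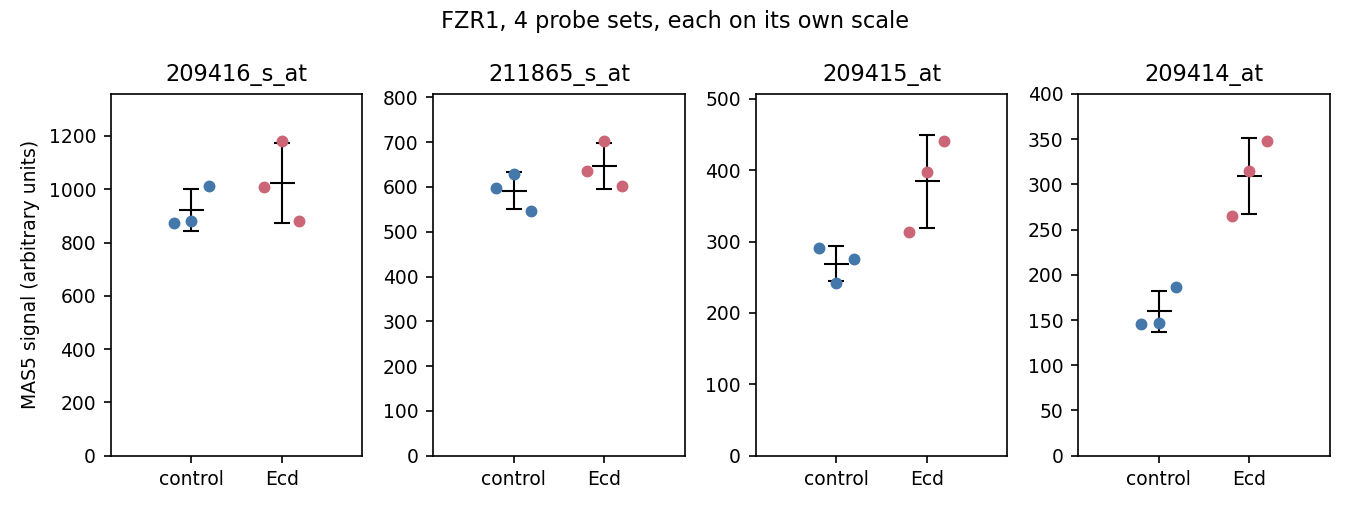
MAS5 signals of the 4 FZR1 probe sets, each on its own linear axis from 0, with points for the 3 control (blue) and 3 Ecd siRNA (red) arrays and bars for the mean and SD. The brighter pair overlaps between groups, while 209415_at (means 269 and 384) and 209414_at (means 160 and 309) are higher in every Ecd siRNA array.

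Of the 5 core subunits, 1 fell and 4 did not pass the threshold. CDC27, a tetratricopeptide-repeat subunit that docks the coactivators, read 2291.1, 2229.5 and 2479.0 in control arrays and 1957.3, 1769.2 and 1959.1 in Ecd siRNA arrays in probe set 217879_at. The groups did not overlap and 81.2% of the signal remained (log2 change -0.30, SE 0.081, adjusted p = 0.0246). The call was lost with arrays scaled to a common median (adjusted p = 0.139), without the intensity trend (0.0778), as the mean of the gene's probe sets (-0.19, adjusted p = 0.176), and without control replicate 1 (0.0717), control replicate 3 (0.0866) or Ecd siRNA replicate 2 (0.0891). Of its other probe sets, 217878_s_at fell by 0.34 on the log2 scale (adjusted p = 0.0471), a call lost on leaving out any 1 of the 6 arrays (adjusted p 0.0743 to 0.145). That call was also lost with quantile normalization (0.0607), a common median (0.121), no filter (0.0558), no intensity trend (0.0668) or a replicate block (0.074). 217880_at was at -0.0041 and 217881_s_at at -0.13, and neither passed. The RefSeq gene table lists 11 pseudogenes of CDC27, whose transcripts could share probes with it.

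CDC16 and CDC23, further tetratricopeptide-repeat subunits of the scaffold, kept overlapping groups in their brightest probe sets. CDC16 had signals of 2006.1, 1771.3 and 2112.5 against 2072.3, 1810.4 and 1982.6 in 202717_s_at, a log2 change of -0.0044 with a 95% interval of -0.21 to 0.20. A dimmer CDC16 probe set, 209658_at, was higher in every Ecd siRNA array (1285.4, 926.4 and 1311.5 against 1518.5, 1444.0 and 1599.6) with a change of 0.38 on the log2 scale that missed the threshold (adjusted p = 0.0779). CDC23 read 1482.0, 1378.0 and 1541.1 against 1560.4, 1402.6 and 1616.8 in 202892_at, a log2 change of 0.056 (interval -0.14 to 0.25). Its dimmer probe set 223651_x_at was lower in every Ecd siRNA array, with 364.6, 324.4 and 305.6 against 210.0, 250.9 and 250.9, and a log2 change of -0.46, short of the threshold (adjusted p = 0.0658). Neither CDC23 probe set passed in the main fit. With quantile normalization 223651_x_at just passed (-0.46, adjusted p = 0.05 as rounded). No direction is settled for this gene.

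ANAPC5 and ANAPC11 showed no change past the threshold in any tested probe set. ANAPC11, the RING subunit that binds the E2 enzymes with ANAPC2, read 3180.0, 3587.3 and 3650.9 in control arrays and 3586.7, 3242.9 and 3145.7 after Ecd siRNA, a log2 change of -0.062 (95% interval -0.24 to 0.12). Its other probe set, 224010_at, was dim, at 34.0 to 38.0 in control arrays and 4.5 to 29.6 in Ecd siRNA arrays, and lay under the filter. ANAPC5, a scaffold subunit, had 6 probe sets. The brightest, 211036_x_at, read 3037.7, 3542.5 and 3607.3 against 3849.7, 3559.0 and 3138.6 (log2 change 0.049, interval -0.16 to 0.26). The other 4 tested ones ranged from -0.15 to 0.082, and 239651_at, with means of 53.1 and 47.7, was under the filter. The 0.082 was that of 200098_s_at, which was higher in every Ecd siRNA array (means 3168 and 3355) but did not pass (adjusted p = 0.479).

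Counted together, 5 of the 10 members fell and 0 rose (0 also at an unadjusted p under 0.05 in limma), against 11.0% of all tested genes that fell and 10.1% that rose. The groups did not overlap for the same 5, beside 36.5% of all tested genes. The regulators gave 4 falls of 5 with a median log2 change of -2.31, and the core subunits 1 fall of 5 with a median of -0.0044. The median of the 5 regulators, each taken relative to its control mean, was -2.14, -2.48 and -2.32 in the 3 Ecd siRNA arrays. The same median for the core subunits was 0.081, -0.096 and -0.11, beside -0.064 to 0.088 in the control arrays. UBE2S had the smallest fall of the 4 regulators that fell and CDC27 was the core subunit that fell. The log2 change of UBE2S minus that of CDC27, a pair chosen from these changes and so with its test not given, was -1.30. Read probe set by probe set, 7 of the 24 that passed the filter fell and 1 rose, against 8.68% and 8.37% of all tested probe sets. Signals of the groups were fully apart in 12 of the 24 (8 lower and 4 higher with Ecd siRNA), beside 33.7% of all. The 7 falls came from CDC20, FBXO5 (2), UBE2C, UBE2S and CDC27 (2). The proliferation markers MKI67 (1330 ± 39.2 to 272 ± 33.3, log2 change -2.23) and PCNA (6028 ± 621 to 2500 ± 680, log2 change -1.30; SD, n = 3 each) fell in the same arrays, and the part of a change in cycling cells in these values was not tested.

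**Figure D3:**
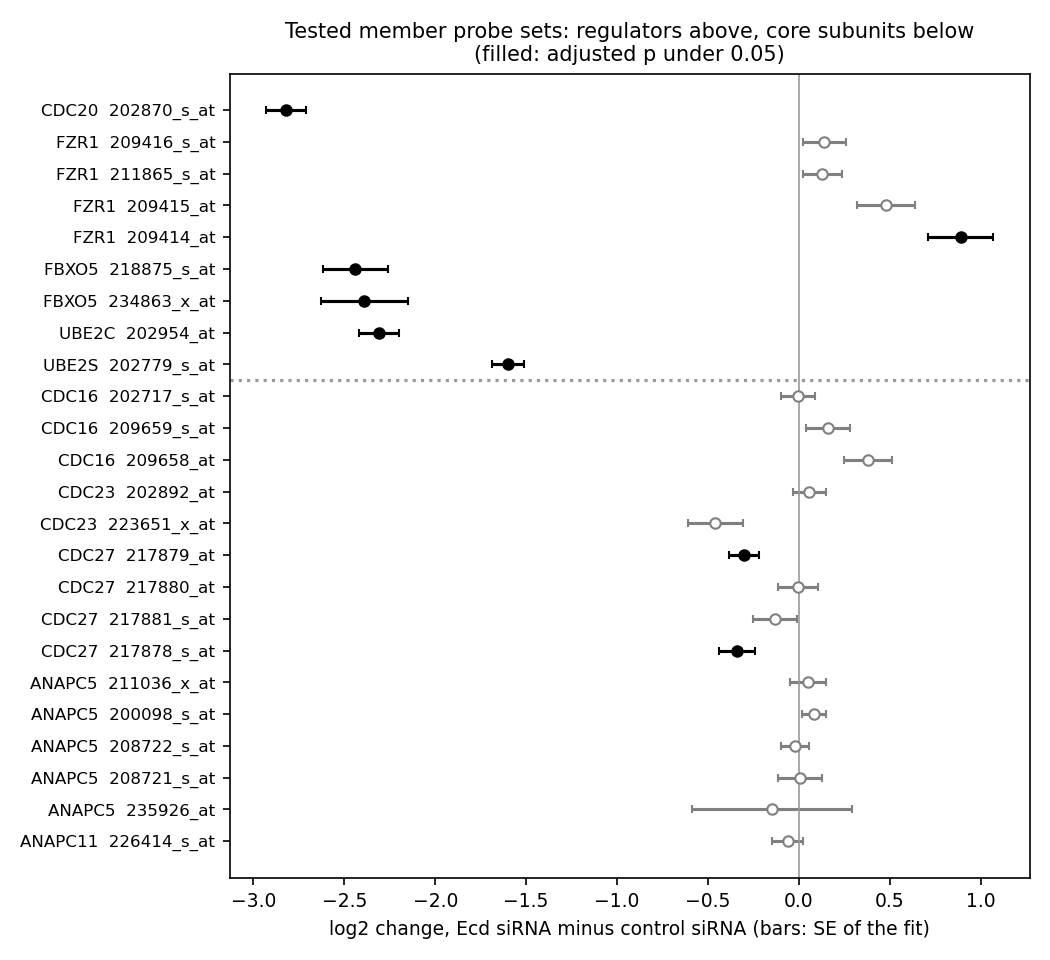
Log2 change (Ecd siRNA minus control siRNA) with its SE for the 24 member probe sets above the filter, regulators above the dotted line and core subunits below, filled where the adjusted p was under 0.05. CDC20, FBXO5, UBE2C and UBE2S lie at -2.82 to -1.60, FZR1 runs from 0.13 to 0.89, and the core subunits lie between -0.46 and 0.38.

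Since 4 regulators fell together, the promoter sequences were searched for letters known from cell cycle genes. The cell cycle genes homology region (CHR, searched as TTTGAA) binds the DREAM and MuvB complexes, the CCAAT box (CCAAT) binds NF-Y, and E2F-like letters were searched as TTTNNCGC, each on both strands in the 250 bases before a transcript start of the RefSeq table for GRCh38.p14. Of the 10 members 9 were matched there, with 14 starts, and UBE2C was not. The sequences of the regulators and of CDC27, the core subunit that fell, are printed 5′ to 3′ on the gene's strand up to the base before the start, with CHR and CCAAT letters of either strand in capitals. For FBXO5 the downstream of its 2 starts is shown, over its last 190 bases.
CDC20 (chr1:43358731-43358980, plus strand): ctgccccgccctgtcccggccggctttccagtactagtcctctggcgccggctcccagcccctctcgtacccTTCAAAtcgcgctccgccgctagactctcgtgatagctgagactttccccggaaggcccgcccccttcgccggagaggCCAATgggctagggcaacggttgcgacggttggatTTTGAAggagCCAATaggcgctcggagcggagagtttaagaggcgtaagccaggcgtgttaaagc
FBXO5 (chr6:152983042-152983231, minus strand): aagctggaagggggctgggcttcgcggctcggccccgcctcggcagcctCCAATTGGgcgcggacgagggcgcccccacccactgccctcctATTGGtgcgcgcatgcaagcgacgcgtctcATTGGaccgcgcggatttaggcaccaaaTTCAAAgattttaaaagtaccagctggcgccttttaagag
UBE2S (chr19:55407789-55408038, minus strand): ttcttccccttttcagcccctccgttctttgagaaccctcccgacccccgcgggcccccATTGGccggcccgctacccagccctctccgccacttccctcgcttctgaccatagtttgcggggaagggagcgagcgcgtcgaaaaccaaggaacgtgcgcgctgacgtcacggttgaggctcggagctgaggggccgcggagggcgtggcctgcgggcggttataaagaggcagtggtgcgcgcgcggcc
FZR1 (chr19:3506061-3506310, plus strand): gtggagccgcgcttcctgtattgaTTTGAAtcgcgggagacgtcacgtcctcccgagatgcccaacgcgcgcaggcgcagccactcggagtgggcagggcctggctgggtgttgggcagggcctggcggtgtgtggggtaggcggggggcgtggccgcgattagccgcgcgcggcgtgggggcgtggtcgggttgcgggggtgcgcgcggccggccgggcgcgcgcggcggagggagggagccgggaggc
CDC27 (chr17:47189296-47189545, minus strand): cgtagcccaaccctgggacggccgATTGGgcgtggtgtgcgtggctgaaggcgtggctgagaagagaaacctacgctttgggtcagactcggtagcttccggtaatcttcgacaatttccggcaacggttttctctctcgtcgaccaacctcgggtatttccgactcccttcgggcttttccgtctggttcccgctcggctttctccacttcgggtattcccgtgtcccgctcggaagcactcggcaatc

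CDC20 held CHR letters at 65 to 60 bases before its start and again at 178 to 173, with CCAAT boxes at 100 to 96 and 55 to 51. FBXO5 had, before its downstream start, CHR letters at 40 to 35 and 4 CCAAT matches, 2 of which overlap on opposite strands at 141 to 134. The upstream FBXO5 start had no match to any of the 3. UBE2S had a CCAAT match at 191 to 187 and no CHR letters. FZR1, which did not fall, had CHR letters at 226 to 221 before its upstream start and no CCAAT box at either start. Among the core subunits, CHR letters were in none of the windows, and CCAAT was in those of CDC16, CDC23 (3 matches), CDC27 and ANAPC5 and in 3 of the 4 of ANAPC11. E2F-like letters were in the windows of CDC16 and CDC23 alone. Of all 35116 promoters of the table, 13.3% held CHR letters, 32% a CCAAT box, 4.69% both and 5.92% the E2F-like letters. A match is a description of the letters and shows no binding.

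**Figure D4:**
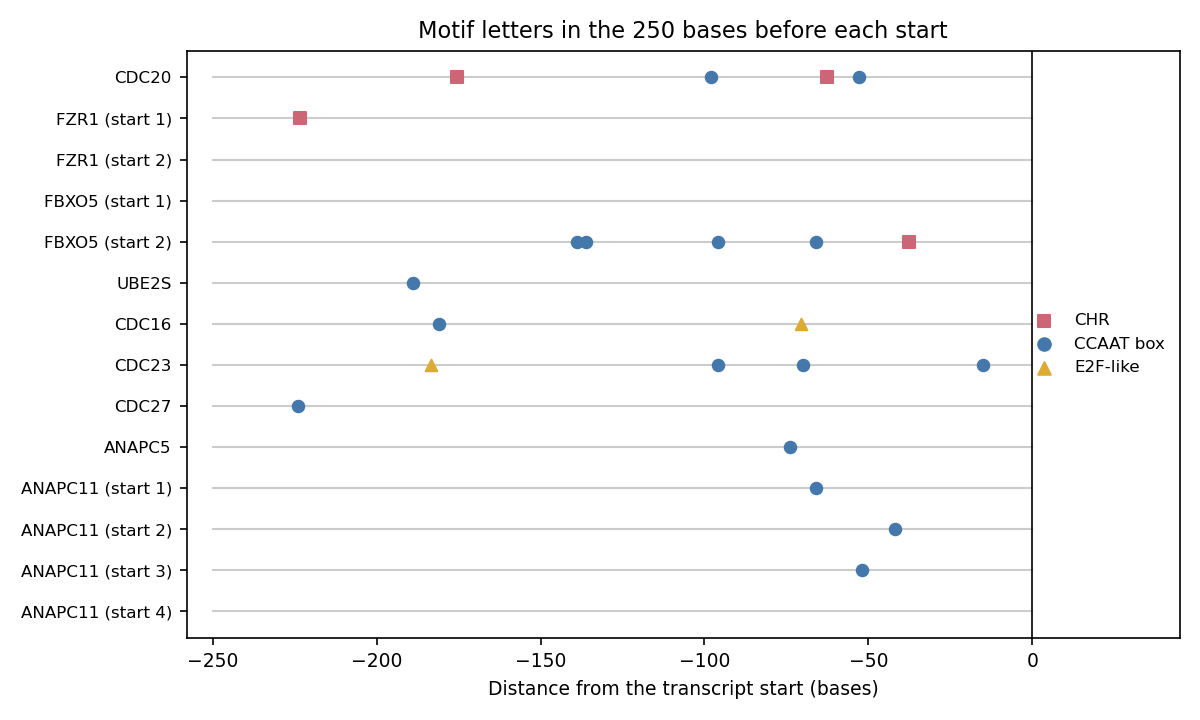
Positions of CHR (TTTGAA, red squares), CCAAT (blue circles) and E2F-like (yellow triangles) letters on either strand in the 250 bases before each of 14 transcript starts of 9 members, by distance from the start in bases. CHR and CCAAT letters occur together only at CDC20 and at the downstream start of FBXO5.

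The rest of the complex moved less than the regulators that fell. It did not move less than the core members above, of which 1 of 5 fell with a median log2 change of -0.0044. Of 9 further core subunits, 8 were tested. Of these 4 fell and none rose, beside 11.0% and 10.1% of all tested genes, and the median log2 change was -0.23, beside 0.0081 for all. ANAPC15, which helps free CDC20 from the checkpoint complex, read 1163.9, 1384.6 and 1048.6 against 795.3, 781.0 and 726.8, a log2 change of -0.62 (SE 0.11, adjusted p = 0.00297). The other 3 that fell were ANAPC10, a substrate-binding subunit (-0.55, adjusted p = 0.00739), CDC26, which stabilises CDC16 (-0.39, adjusted p = 0.00888), and ANAPC13 (-0.22, adjusted p = 0.0416). The ANAPC10 value came from an _s_at probe set, and probe sets without _s or _x gave 0.087 (adjusted p = 0.866). The CDC26 call was lost with a common median (-0.40, adjusted p = 0.0547). Averaged over its probe sets ANAPC13 stood at -0.045 (adjusted p = 0.858). It also no longer passed with a common median (0.192), without the intensity trend (0.115), without control replicate 1, without control replicate 2, or without any 1 of the Ecd siRNA arrays (adjusted p up to 0.151). ANAPC2, the cullin subunit, was at -0.22, ANAPC7 at -0.23, ANAPC4 at -0.038 and ANAPC16 at 0.18, and none of these passed. ANAPC1 was not analysed here. With arrays scaled to a common median 2 of the 8 fell.

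Genes of known substrates, the proteins that the complex marks for destruction, were read as a list of 28. Of these 28 were tested and 28 fell, beside 11.0% of all tested genes. Their median log2 change was -2.14 and the smallest fall was that of SGO1 (-0.65). FOXM1 (mean signals 912 and 38.5) and KIFC1 (509 and 48.2) were under the filter level of 90.2 with Ecd siRNA, so the size of their falls is not settled. This list was written from textbook knowledge and shares genes with lists already known to fall in these data, so it is no independent evidence of direction. Cyclin B1 (CCNB1) was at -2.69 and cyclin A2 (CCNA2) at -2.48, with signals of 2261.6, 2436.7 and 2234.4 against 409.8, 429.5 and 367.9 for the latter. The spindle protein gene HMMR was at -3.03, the cytokinesis scaffold gene ANLN at -2.79 and the ribonucleotide reductase gene RRM2 at -2.45. When any 1 array was left out 27 or 28 fell, and 27 fell with no filter or with probe sets without _s or _x.

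The list of checkpoint and APC/C inhibitor genes fell in part, and not all its members restrain the complex (TRIP13, below). Of 10 tested checkpoint and inhibitor genes, 6 fell and 0 rose (0 also at an unadjusted p under 0.05 in limma), beside 11.0% and 10.1% of all tested genes, with a median of -0.53. The mitotic checkpoint complex genes BUB1B (-2.63) and MAD2L1 (-2.03, from a mean of 4309 to 1046) fell, as did the checkpoint kinase gene TTK (-2.42). TRIP13, the ATPase that takes the checkpoint complex apart, was at -1.59, and BUB3, the remaining checkpoint complex partner, fell by 0.55 on the log2 scale in its brightest probe set. Averaged over its probe sets BUB3 stood at -0.23 and did not pass (adjusted p = 0.0677). FBXO43, the meiotic relative of FBXO5, was under the filter at mean signals of 29.7 and 15.

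Of the other E2 enzymes, UBE2T fell about as far as UBE2S and most did not pass the threshold. Of 24 tested genes 2 fell and 6 rose, beside 11.0% and 10.1% of all tested genes, 16 missed the threshold, and the median was 0.019. With 1 array left out 3 to 5 rose (3 without control replicate 1, control replicate 3 or Ecd siRNA replicate 2), and without the intensity trend 2 rose. UBE2T, the E2 of the Fanconi pathway, fell from 1309.7, 1556.6 and 1282.1 to 482.3, 410.9 and 417.0 (log2 change -1.63, SE 0.11, adjusted p = 5.29e-06). That lies beside the -1.60 of UBE2S. UBE2N, the E2 of lysine 63 chains, was the other fall at -0.25, but probe sets without _s or _x put it at 0.058 (adjusted p = 0.828). Among the 6 rises were CDC34, the E2 of the SCF ligases (0.45, adjusted p = 0.00348), UBE2Q2 (0.50), UBE2H (0.32) and UBE2E3 (0.23). The calls of UBE2H and UBE2E3 were lost with a common median (adjusted p = 0.0598 and 0.194), where 2 of the 24 rose. UBE2E3 also missed the threshold without any 1 control array or without Ecd siRNA replicate 3 (adjusted p up to 0.0723), UBE2H without control replicate 3 or Ecd siRNA replicate 2 (up to 0.0596), and UBE2N without any 1 control array or without Ecd siRNA replicate 1 or 2 (up to 0.121).

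**Figure D5:**
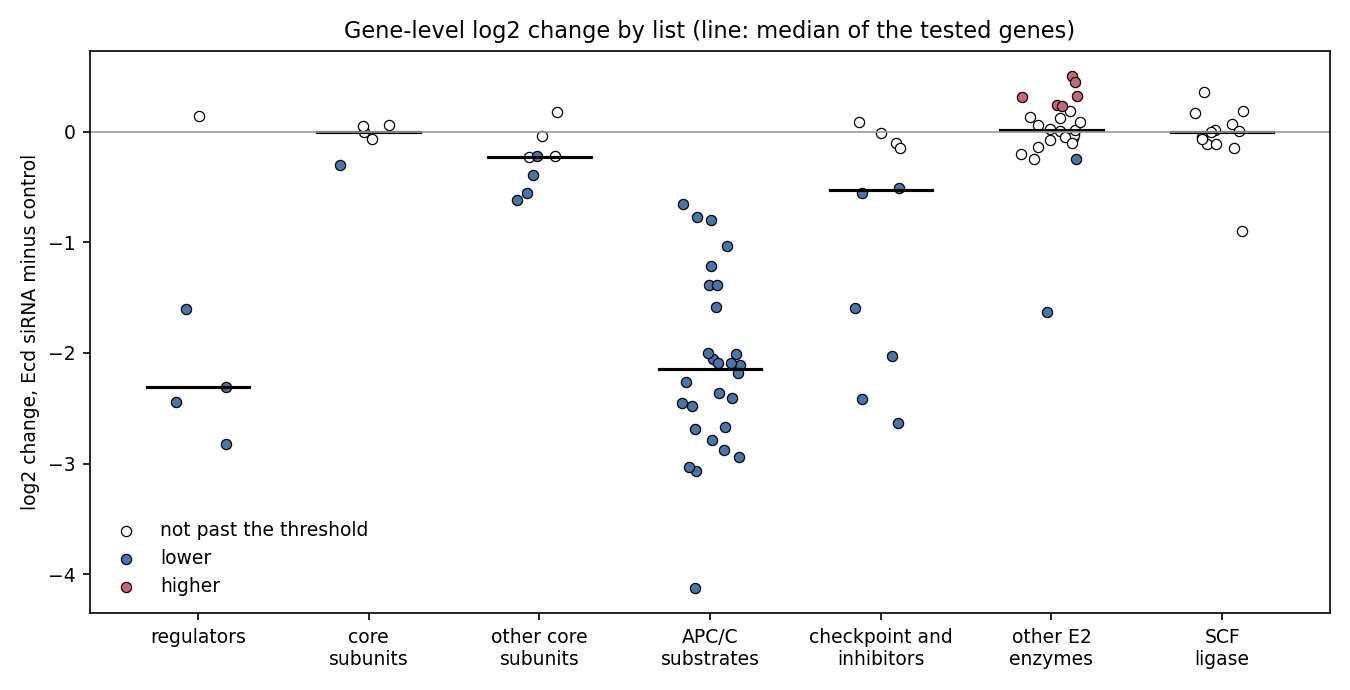
Gene-level log2 change (Ecd siRNA minus control siRNA) of every tested gene in the regulators, the core subunits and 5 further lists, blue where lower, red where higher and open where not past the threshold, with a line at each median. The regulators (median -2.31) and substrates (-2.14) lie far below the core subunits (-0.0044), other E2 enzymes (0.019) and SCF ligase genes (-0.0037).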

How the data were processed

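Total RNA of 6 cultures was labelled with biotin and hybridised to 1-colour Affymetrix arrays, per the labels. The deposited values are linear intensity signals, 1 for each probe set on each array, made with MAS5 per the submitters' processing notes and without detection calls. The MAS5 version and scaling target are not given in the sources used here. A trimmed mean of 499.9 on every array shows that the arrays had been scaled alike, which hides a change common to every transcript.

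Groups and replicate numbers came from the sample titles. Of 54675 probe sets, 62 controls were left out, 41091 had 1 gene symbol, 1801 several and 11721 none. The deposited signals were not rescaled. They were converted to log2(signal + 16), reduced to the brightest probe set of each of 19775 symbols, filtered to the upper 60% by mean signal, and fitted with limma 3.58.1 (lmFit, eBayes with an intensity trend, R 4.3.3). A second fit took every single-symbol probe set above the filter. Fits were tested on simulated data, where true changes that were called had the right sign, some calls were false and a share of the true changes was missed, after the recovery asked of the test had been lowered. Hence a gene that misses the threshold is not shown to be unchanged. The number of arrays limits the precision, and p-values reflect the spread among 6 biological replicates. Within-array differences were compared by two-sided exact permutation tests, with 95% intervals from their SE. Likeness between genes was the Euclidean distance of mean-centred log2 values over the 6 arrays.

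The members and lists were chosen with earlier results of these data known. Named genes were ECD, all members and other core subunits, MKI67, PCNA, the 3 genes nearest to each regulator, and from each list up to 5 with the smallest adjusted p past the threshold, or all in a direction with 5 or fewer. COL1A1 and the cell type markers, FBXO43, FOXM1, KIFC1, SGO1, CCNF, BTRC, CUL1, SKP1 and RBX1 were named outside that rule, after their values were seen. Alternatives were quantile normalization, a common median, pseudocounts of 1 and 64, an upper 40% filter or none, the mean of probe sets, probe sets without _s or _x, no trend, a replicate block, and each array left out. Same-numbered arrays of the groups had deviations correlated at -0.004, 0.084 and 0.157, beside -0.137 to 0.055 for differently numbered arrays. The numbers were not taken as pairs in the main fit, and the replicate block above takes them as such.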

Additional observations from a re-analysis of the deposited data

How the results depend on the processing

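The falls of CDC20 (-2.90 to -2.61), FBXO5 (-2.64 to -2.12), UBE2C (-2.40 to -2.21) and UBE2S (-1.66 to -1.55) passed in all 17 settings including the main one, with adjusted p up to 0.00067. With a pseudocount of 64 the regulators' median was -2.12. The mean of probe sets gave 1 member higher (FZR1), a core median of -0.19 and 2 other core subunits lower. A common median gave 2 other core subunits, 1 other E2 gene and 1 SCF gene lower. Probe sets without _s or _x gave 2 and 1 for the first of these lists, with ANAPC10 at 0.087 and UBE2N at 0.058. Without the trend 1 other E2 gene was lower. Member probe sets lower numbered 5 with a common median or without the trend, 6 with the replicate block, and 6 of 26 with no filter. The SCF count lower was 1 with a pseudocount of 64, the upper 40% filter, the mean of probe sets and the replicate block, and the SCF count higher was 1 with quantile normalization, the upper 40% filter, the replicate block and without control replicate 3. Of other E2 genes, 2 were higher with a common median or without the trend. The replicate block gave 2 member probe sets higher (209658_at of CDC16 added, adjusted p = 0.0403) and cost ANAPC13 its call (0.0556). With 1 array left out, members lower numbered 4 to 5, member probe sets lower 5 to 6 and higher 1 to 2, other core subunits lower 3 to 4, other E2 genes lower 1 to 3 and higher 3 to 5, and SCF genes lower 0 to 1. The causes were not tested. No detection calls were used, so dim probe sets cannot be told from background.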

Other observations

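The SCF ligases, the other large family of cell cycle ubiquitin ligases, were read as a list of 13 genes, all tested. With limma 0 passed the threshold in either direction, beside 11.0% of all tested genes that fell and 10.1% that rose. The median log2 change was -0.0037. The scaffold gene CUL1 was at -0.11, the adaptor gene SKP1 at 0.071 and the RING subunit gene RBX1 at 0.007. At an unadjusted p under 0.05 in limma there were 1 lower and 2 higher, beside 2405 and 2330 of all 14612 tested genes. CCNF, the cyclin F gene, read 662.4, 491.6 and 455.2 in control arrays and 426.1, 309.4 and 156.0 after Ecd siRNA, a log2 change of -0.90 (SE 0.29, adjusted p = 0.0538). BTRC, whose product marks FBXO5 for destruction, was higher in every Ecd siRNA array, at 652.2, 606.3 and 765.8 against 948.9, 805.7 and 849.8, with a log2 change of 0.36 (adjusted p = 0.0524).

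The tested genes with values most like those of each regulator over the 6 arrays were found by distance, as a description. Nearest to CDC20 were FAM83D (distance 0.14, log2 change -2.78), ANLN (0.26) and CCNB1 (0.28). Nearest to UBE2C were CDCA2 (0.18, log2 change -2.30), CDCA3 (0.32) and RRM2 (0.32), and to UBE2S PKMYT1 (0.13, log2 change -1.64), SPIN4 (0.18) and SKA3 (0.20). FBXO5 had more distant neighbours, SKA1 (0.34), ANO1 (0.51) and KIF14 (0.52). For FZR1 they were ZNF614 (0.059), BORCS6 (0.10) and CRELD2 (0.12), none of which passed the threshold.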
